A study of Mus musculus with 4 samples.

Results

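The Klk1 and Klk1b genes encode the tissue kallikreins of the mouse, secreted serine proteases. The 10 genes described are Klk1, Klk1b3, Klk1b5, Klk1b8, Klk1b16, Klk1b21, Klk1b22, Klk1b24, Klk1b26 and Klk1b27, taken by symbol from the 24420 symbols of the deposited expression table. They were chosen by family with their CPM and their MUT to WT differences in this table already known, so their differences between genotypes are given as a description. Testis RNA of FVB mice was sequenced in 4 libraries, 2 labelled lrrc8a MUT (mutant for the volume-regulated anion channel gene Lrrc8a) and 2 labelled WT (wild type). All 4 are freshly isolated testis treated with DNase I. The labels give neither the age, nor the kind of mutation, nor whether libraries came from separate animals. The p-values therefore reflect differences among libraries that may be technical.

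Tissue kallikreins cut precursor proteins after basic residues. Klk1 is the enzyme that releases kinins, peptides acting on blood vessels and smooth muscle, from kininogen. The Klk1b genes arose by repeated duplication in the mouse lineage, and several are best known from the submandibular gland. Klk1b22 encodes an epidermal growth factor binding protein, Klk1b16 gamma-renin and Klk1b26 a prorenin-converting enzyme. Klk1b21, Klk1b24 and Klk1b27 have been described in Leydig cells, the androgen-producing cells between the seminiferous tubules.

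On the mouse build GRCm38 (mm10), GENCODE vM21 places 24 Klk1 and Klk1b genes within 287 kb of the plus strand of chromosome 7, of which 14 are protein-coding and 10 are pseudogenes. The 10 members are all protein-coding with 5 exons each. Klk1b21 lies from 44102328 to 44106583 (ENSMUSG00000066516), Klk1b24 from 44188236 to 44192455 (ENSMUSG00000063713) and Klk1b27 from 44052290 to 44056712 (ENSMUSG00000063177). Klk1b8 lies near the other end of the cluster, from 43950664 to 43954941 (ENSMUSG00000063089), within the antisense gene Gm44756. Klk1b3 lies from 44198191 to 44202352 (ENSMUSG00000066515), next to Klk1b24, and Klk1 from 44225360 to 44229618 (ENSMUSG00000063903), overlapped on the other strand by the pseudogene Gm10109. The others are Klk1b26 from 44012168 to 44016968, Klk1b22 from 44112673 to 44116922, Klk1b16 from 44136767 to 44141610 and Klk1b5 from 44215945 to 44220703. Gm10109 ends at 44227421, so it overlaps only part of Klk1. These overlaps are of whole gene spans, and exons were not compared. If the counting ignored strand, reads from overlapped stretches of Klk1b8 and Klk1 may not be told apart from those of these partners. The library kit keeps strand, per the labels, but its use in counting is not stated there.

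The coding sequences of the members, 777 to 789 bases long, were between 81.4% and 95.1% identical over the 45 pairs, with a median of 86.4%. Klk1b21, Klk1b24 and Klk1b27 were closest to one another, with 48 differing bases between Klk1b21 and Klk1b24, 48 between Klk1b21 and Klk1b27, and 51 between Klk1b24 and Klk1b27. Klk1b8 was closest to Klk1b26 (91.4%), and Klk1 to Klk1b5 (95.1%). Klk1b3 was at most 89.5% identical to any other member. The 60-base coding window that differed most between the abundant members and Klk1b3 shows where their sequences separate most, not how they differ elsewhere. Capitals mark bases that differ from the most common base among the 5 genes, and 27 of the 60 positions varied. The windows lie at chr7:44105568-44105627 (Klk1b21), chr7:44191444-44191503 (Klk1b24), chr7:44055705-44055764 (Klk1b27), chr7:43953930-43953989 (Klk1b8) and chr7:44201331-44201390 (Klk1b3), all on the plus strand of GRCm38.
Klk1b21: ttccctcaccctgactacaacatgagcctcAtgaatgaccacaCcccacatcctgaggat
Klk1b24: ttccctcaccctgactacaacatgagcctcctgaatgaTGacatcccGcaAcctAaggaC
Klk1b27: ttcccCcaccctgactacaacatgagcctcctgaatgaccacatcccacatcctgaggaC
Klk1b8: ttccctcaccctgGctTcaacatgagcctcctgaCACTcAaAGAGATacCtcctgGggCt
Klk1b3: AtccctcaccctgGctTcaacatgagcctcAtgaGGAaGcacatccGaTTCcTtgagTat
Klk1b21 and Klk1b27 each depart from the common base at 2 positions and Klk1b24 at 6, against 16 for Klk1b8 and 14 for Klk1b3. The common base was set largely by Klk1b21, Klk1b24 and Klk1b27, which are close copies, so this contrast follows in part from its definition.

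**Figure D1:**
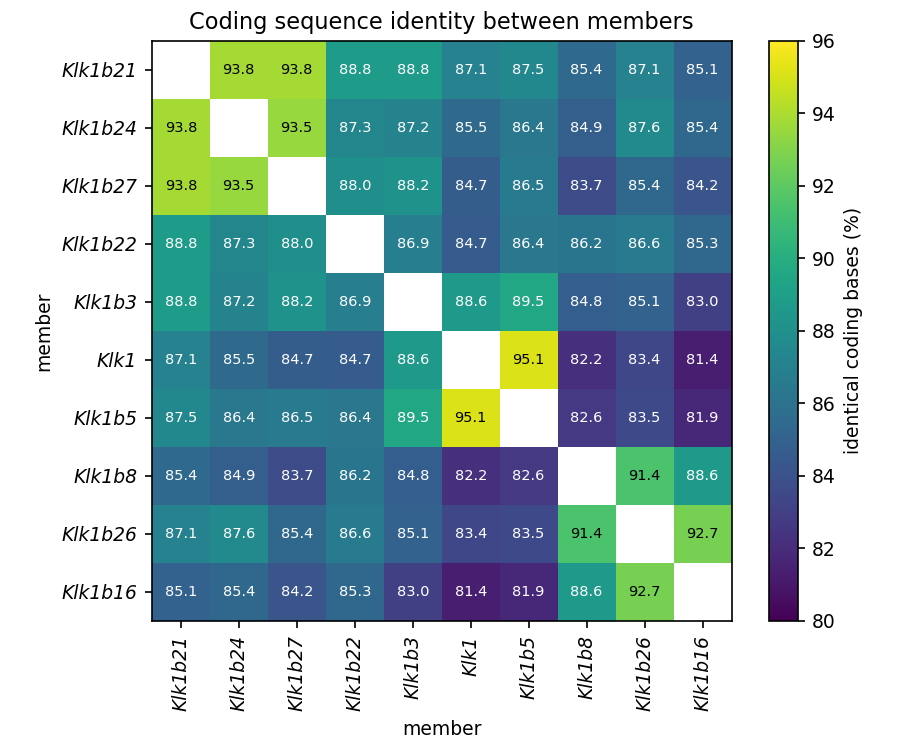
Share of identical coding bases (%) for each pair of the 10 members, with both axes listing the members and brighter cells for higher identity. Klk1b21, Klk1b24 and Klk1b27 form a block between 93.5% and 93.8%, Klk1 and Klk1b5 reach 95.1%, and Klk1b26 is closest to Klk1b16 at 92.7%.

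How far reads can be assigned to a single member depends on their length, which the labels leave out. All sequences given are those of the build GRCm38, and the sequence of FVB mice was not examined. Of all 50-base stretches of the Klk1b24 transcript, 66.1% occurred in no transcript of another GENCODE gene. The shares were 70.9% for Klk1b21, 85.7% for Klk1b27, 77.4% for Klk1b8, 78.7% for Klk1b3 and 71.6% for Klk1. For 100-base stretches they were 97.4% (Klk1b24), 96.5% (Klk1b21), 98.2% (Klk1b27), 99.2% (Klk1b8), 100% (Klk1b3) and 93.9% (Klk1). The longest identical run between the transcripts of Klk1b21 and Klk1b24 was 117 bases, and between those of Klk1 and Klk1b5 it was 145 bases. How the authors' counting treated reads shared by several members is not stated in the labels, so the count of a single member is uncertain to that extent.

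Expression was read as the deposited CPM, reads of a gene per 1e+06 reads after a further scaling between libraries. The columns summed to 992487 in MUT 1, 987723 in MUT 2, 1011463 in WT 1 and 1008533 in WT 2, not to 1e+06. The libraries held 40426400 to 68192776 recovered reads. The labels name germ cells as the cell type, but all 14 Leydig and all 12 Sertoli cell markers passed the filter on low values beside all 11 germ cell markers, so RNA of somatic cells was present. Markers of the epididymis, the duct beside the testis, summed to 0.943 to 1.44 CPM. Lrrc8a itself was at 13.5 CPM in MUT 1, 15.9 in MUT 2, 18.2 in WT 1 and 17.1 in WT 2 (limma adjusted p = 0.218). Where in the gene the mutation lies is not among the labels, so these values do not check them.

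The members fell into 3 ranges of expression. Genes were compared per kilobase of transcript, a scale that allows for length but not for stretches shared with other genes. Klk1b21, Klk1b27, Klk1b24 and Klk1b8 averaged 42.2, 39.2, 36.7 and 36.5 CPM per kb over the 4 libraries. A gap followed to Klk1b22, Klk1b3 and Klk1 at 4.83, 4.50 and 4.48 CPM per kb, and then to Klk1b5 and Klk1b16 at 1.29 and 0.972. Klk1b26 had no read in any library, so 9 members were detected, and Klk1b5 and Klk1b16, with 60 to 105 reads per library, were near 0 beside the abundant members. Neighbours within the first and within the second range overlapped over the 4 libraries and did not differ beyond their spread. In the first range, 50-base stretches found in no other gene made up 66.1% (Klk1b24) to 85.7% (Klk1b27) of the transcript. The part of shared reads in the order within this range was not tested. That order changed with genotype. Klk1b8 was the most abundant member per kilobase in both WT libraries, at 38.4 and 39.0 CPM per kb against at most 35.1 for any other member. In both MUT libraries it was the lowest of these 4 genes, at 33.7 and 35.1 CPM per kb. All 10 members together took 0.0154% of the reads in MUT 1, 0.0206% in MUT 2, 0.0134% in WT 1 and 0.0110% in WT 2.

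**Figure D2:**
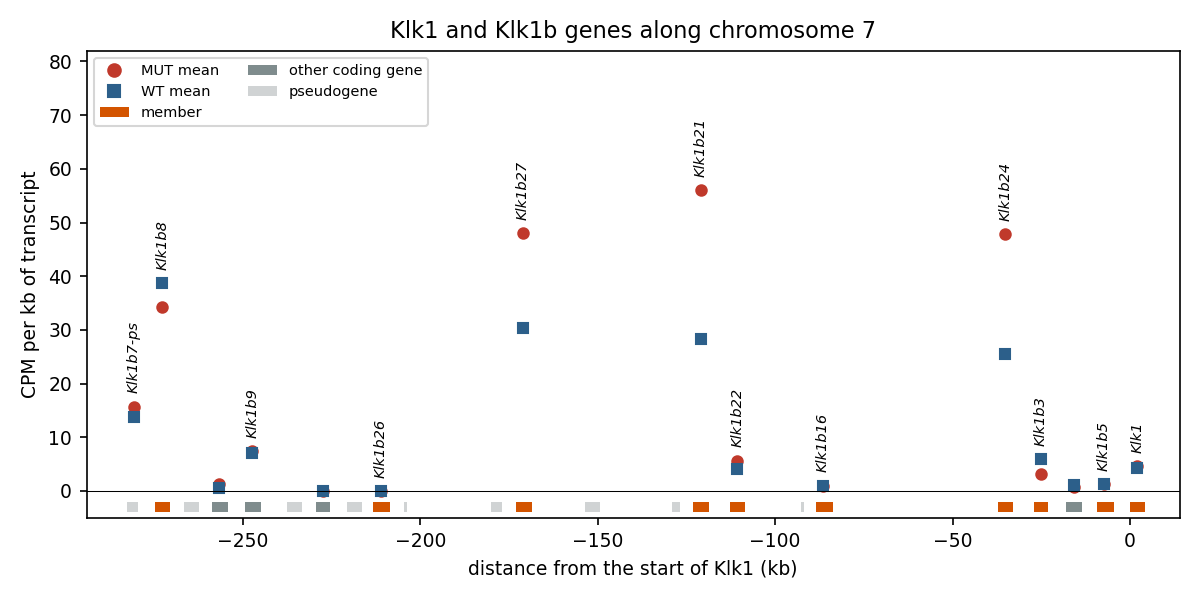
Mean CPM per kilobase of transcript (vertical axis) in MUT (circles) and WT (squares) at each gene's distance in kb from the start of Klk1; coloured bars along the bottom mark members, other coding genes and pseudogenes. Klk1b27, Klk1b21 and Klk1b24 stand above the low neighbours Klk1b22, Klk1b16 and Klk1b3, with MUT above WT, while Klk1b8 has WT above MUT.

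Klk1b21 was at 39.1 CPM in MUT 1, 58.5 in MUT 2, 28.1 in WT 1 and 21.3 in WT 2. Both MUT libraries lay above both WT libraries, but the MUT libraries differed between themselves by a factor of 1.497. These values rest on 1908, 2396, 1894 and 1059 reads, so counting error is small beside that spread. The mean was 48.8 ± 13.7 CPM in MUT and 24.7 ± 4.81 CPM in WT (SD, n = 2), a log2 fold change of 0.95 (SE 0.139) on the log2(CPM + 0.5) scale.

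Klk1b24 was at 32.2 CPM in MUT 1, 51.8 in MUT 2, 26.1 in WT 1 and 18.8 in WT 2. It was highest in MUT 2 and lowest in WT 2, as Klk1b21 was, and the genotypes did not overlap. Its log2 fold change was 0.87 (SE 0.157), and it ranged from 0.53 without MUT 2 to 1.21 without MUT 1. Klk1b27 was at 38.0 and 47.5 CPM in the MUT libraries against 31.2 and 22.6 CPM in WT. The same libraries were highest and lowest, and its log2 fold change was 0.67 (SE 0.120). The ratio of Klk1b24 to Klk1b21 varied little: Klk1b24 was at 0.823, 0.886, 0.931 and 0.884 times the CPM of Klk1b21 in MUT 1, MUT 2, WT 1 and WT 2. The part of reads shared by these copies in the steady ratio was not tested. Klk1b27 varied more, at 0.971, 0.811, 1.11 and 1.06 times Klk1b21 in the same order, and lower in both MUT libraries than in both WT libraries.

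**Figure D3:**
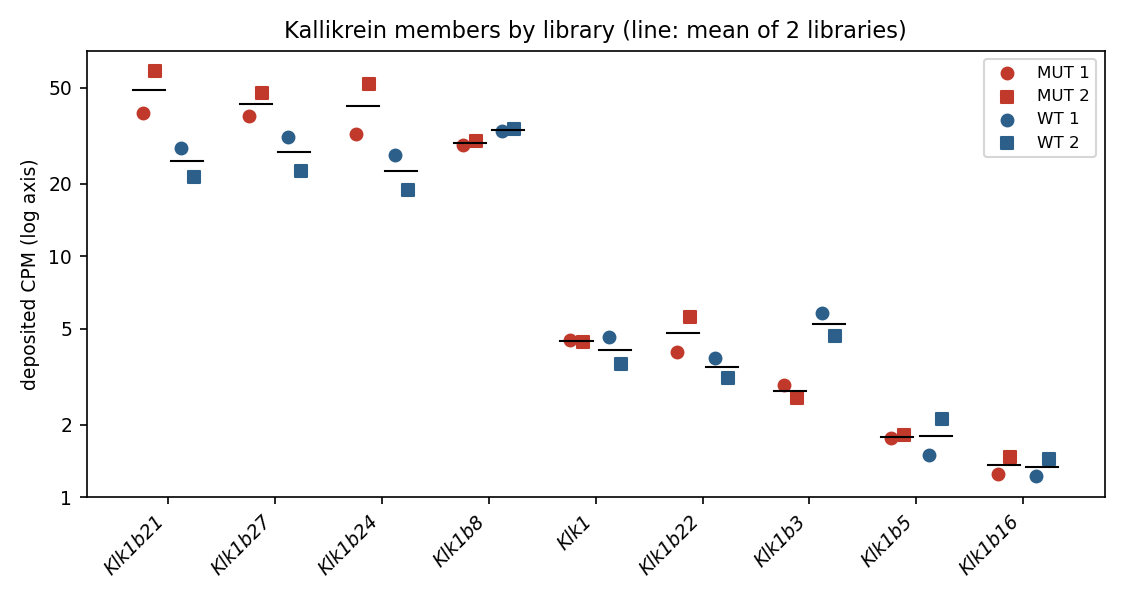
Deposited CPM (log axis) of the 9 detected members in each library, with MUT in red and WT in blue, circles for replicate 1, squares for replicate 2 and a line at the mean of the 2 libraries. MUT 2 is the highest and WT 2 the lowest library for Klk1b21, Klk1b27, Klk1b24 and Klk1b22, while both MUT libraries lie below both WT libraries for Klk1b3 and Klk1b8.

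Klk1b22 followed the same order at a lower level, with 3.998 CPM in MUT 1, 5.60 in MUT 2, 3.797 in WT 1 and 3.14 in WT 2. MUT 1 and WT 1 were close, and the log2 fold change of 0.41 (SE 0.153) was not called (limma adjusted p = 0.218). It was called only when MUT 1 was left out (0.62, adjusted p = 0.0373), and without MUT 2 it was 0.19 (adjusted p = 0.751).

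Klk1b3 went the other way. It was at 2.93 CPM in MUT 1, 2.59 in MUT 2, 5.80 in WT 1 and 4.68 in WT 2, so that both MUT libraries lay below both WT libraries. These are 143, 106, 391 and 233 reads. The mean was 2.76 ± 0.242 CPM in MUT and 5.24 ± 0.788 CPM in WT (SD, n = 2), a log2 fold change of -0.81 (SE 0.141). Klk1b24, its neighbour in the cluster, was at 11.0 and 20.02 times the CPM of Klk1b3 in the MUT libraries and at 4.51 and 4.02 times in the WT libraries.

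Klk1b8, as abundant as Klk1b24 per kilobase, differed little. It was at 28.9 CPM in MUT 1, 30.1 in MUT 2, 32.9 in WT 1 and 33.5 in WT 2. The genotypes did not overlap, the 2 libraries of each genotype agreed within 1.04-fold, and the log2 fold change was -0.17 (SE 0.0804; limma adjusted p = 0.341). The ratio of Klk1b21 to Klk1b8 was 1.35 in MUT 1, 1.94 in MUT 2, 0.853 in WT 1 and 0.636 in WT 2, so that the more abundant of these genes by CPM differed with genotype.

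Klk1, the kinin-releasing enzyme, was at 4.51 and 4.40 CPM in the MUT libraries against 4.64 and 3.56 CPM in WT. The genotypes overlapped, and its log2 fold change was 0.12 (SE 0.139; limma adjusted p = 0.747). Klk1b5 was at 1.76 and 1.81 CPM in the MUT libraries against 1.498 and 2.11 CPM in WT, a log2 fold change of 0.00087 (SE 0.170). Klk1b16 was at 1.25 and 1.47 CPM in the MUT libraries against 1.23 and 1.45 CPM in WT, a log2 fold change of 0.015 (SE 0.173). For these 3 genes the libraries of 1 genotype spread at least as widely as the genotypes, and no difference was detectable.

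Klk1b26 had 0 reads in every library, which allows up to 3 reads, or 0.0445 to 0.0733 CPM depending on the library. The table also lists Egfbp2, which RefSeq gives as another name of Klk1b26, and it too had 0 reads in every library. The table held 27 loci under both a RefSeq symbol and its synonym, and both names were at 0 for 4 of them and at least 1 name for 11. In RefSeq on GRCm38.p6 the locus of Klk1b21, from 44004616 to 44106583, encloses the positions of Klk1b26 and Klk1b27. Klk1b27, enclosed in the same way, had 1853 reads in MUT 1, 1943 in MUT 2, 2105 in WT 1 and 1125 in WT 2. The labels do not name the annotation used in counting, and the part of these overlaps in the 0 was not tested.

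In the fit over all genes, 9 members passed the filter on low values, 3 were called higher in MUT (Klk1b21, Klk1b24 and Klk1b27), 1 lower (Klk1b3) and 5 not called. The limma adjusted p of Klk1b21 was 0.00157, that of Klk1b24 and of Klk1b27 was 0.0113, and that of Klk1b3 was 0.00849. Of the 15364 tested genes, 0.749% were called, 0.482% higher and 0.267% lower. Because the members were chosen with this comparison known, nothing is read from these counts. Both MUT libraries lay above both WT libraries for 4 members and below for 2, against 23.0% and 22.6% of all tested genes. The median log2 fold change was 0.12 over the 9 tested members and -0.0016 over all tested genes. It was above 0 for 7 members and below for 2, against 49.6% above 0 among all tested genes. Of the 7, Klk1, Klk1b5 and Klk1b16 changed sign when single libraries were left out.

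**Figure D4:**
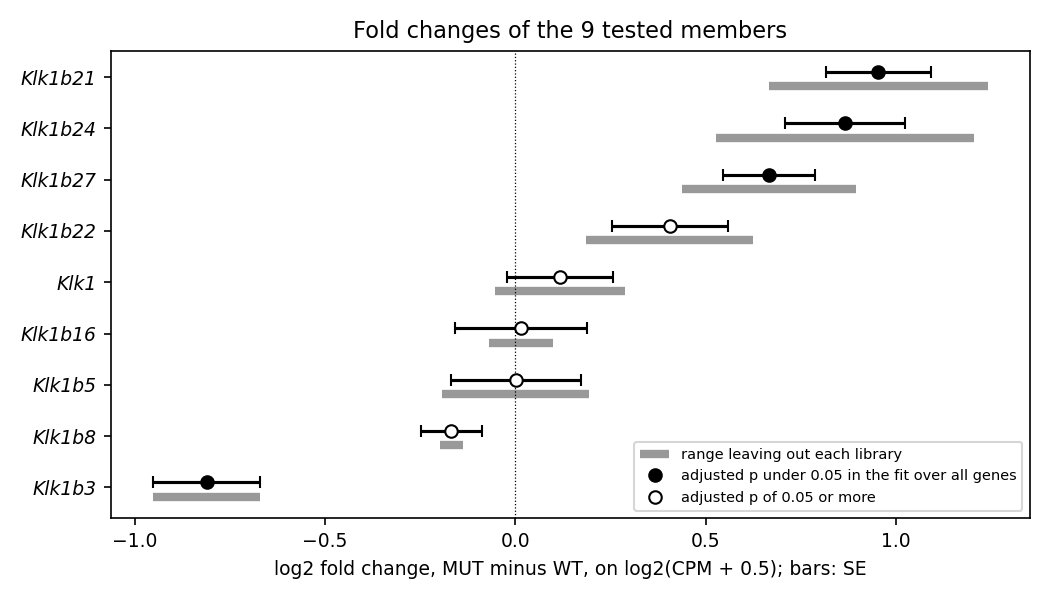
Log2 fold change of the 9 tested members, MUT minus WT, on the log2(CPM + 0.5) scale (horizontal axis), with the SE as a bar, filled points for adjusted p under 0.05, and a grey bar for the range when each library is left out in turn. Klk1b21, Klk1b24, Klk1b27 and Klk1b22 stay above 0 and Klk1b3 and Klk1b8 below 0 over the grey range, while Klk1, Klk1b16 and Klk1b5 cross 0.

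The calls depended on how the spread was modelled and on single libraries. DESeq2 on the recovered reads raised the adjusted p of Klk1b21 to 0.155, of Klk1b24 to 0.337 and of Klk1b27 to 0.280. With robust variances in limma they were 0.251, 0.435 and 0.0829 in the same order. All 4 calls were lost when genes of any level were tested (adjusted p from 0.146 to 0.242) and without the variance trend (0.140 to 0.259). Quantile normalization lost those of Klk1b24 (0.0584) and Klk1b27 (0.0541). Without WT 2, the calls of Klk1b24 (0.63, limma adjusted p = 0.0549) and Klk1b27 (0.44, adjusted p = 0.0529) were lost. Without WT 1 the call of Klk1b3 was lost (-0.67, adjusted p = 0.0521). Klk1b21 kept its call with any library left out, at log2 fold changes of 0.67 to 1.24. In these fits the lone library of a genotype is assumed to vary like those of the other. Across 15 alternatives Klk1b21 was called in 11 and Klk1b24 and Klk1b27 in 9 each, and Klk1b3 in 11 of the 14 in which it passed the filter. The sign of these 4 genes was the same in each.

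Summed over all 10 members, CPM was 153 in MUT 1, 204 in MUT 2, 135 in WT 1 and 111 in WT 2. The mean was 178 ± 36.2 in MUT and 123 ± 17.1 in WT (SD, n = 2), a log2 ratio of 0.53 that ranged from 0.31 to 0.73 when single libraries were left out. A read assigned to a single member counts once in the sum, whichever member that is. Reads shared by several members may be missing from the sum or counted more than once, since their treatment is not stated. The difference lay in Klk1b21, Klk1b24 and Klk1b27, whose sum was 109 and 158 CPM in the MUT libraries against 85.5 and 62.7 CPM in WT. The sum of the other 7 was 43.4 and 46.0 CPM in the MUT libraries against 49.9 and 48.4 CPM in WT. The 3 genes thus made up 71.6% and 77.4% of the members' CPM in MUT and 63.1% and 56.4% in WT. They are the members called higher in these same libraries, so this split and its contrast follow in part from that choice.

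The summed level of Leydig cell markers other than kallikreins was also higher in both MUT libraries, by less. In bulk tissue, more cells of a type and more RNA per cell cannot be told apart. Of 14 tested markers, 2 were called higher and 0 lower, and for 9 both MUT libraries lay above both WT libraries, against 0.482% called higher and 23.0% not overlapping in this direction among all tested genes. The log2 fold change was above 0 for 10 markers and below 0 for 4, among them Insl3 (-0.28, limma adjusted p = 0.471) and Sult1e1 (-0.39, adjusted p = 0.450), and Star was at 0.11 (adjusted p = 0.561). The called markers were Prlr, the prolactin receptor gene (0.53, SE 0.0874, limma adjusted p = 0.00488), and Cyp17a1, an enzyme gene of androgen synthesis (0.28, SE 0.0604, adjusted p = 0.0361). Cyp17a1 alone, at 657 and 680 CPM in the MUT libraries against 573 and 533 CPM in WT, was the largest term of the sum. Summed, the 14 markers were at 1471 and 1545 CPM in the MUT libraries against 1322 and 1298 CPM in WT, a ratio of 1.15. The ratio was 1.80 for the sum of Klk1b21, Klk1b24 and Klk1b27, 1.45 for all 10 members and 0.908 for the other 7. The 3 genes are the members called higher in these data. The size of their ratio, and of their difference per marker CPM below, follows in part from that choice. For each 100 CPM of these markers, the 3 kallikreins held 7.43 and 10.2 CPM in the MUT libraries against 6.46 and 4.83 CPM in WT, so that the libraries remained apart on this scale. Klk1b8 held 1.96 and 1.95 CPM in the MUT libraries against 2.49 and 2.58 CPM in WT. The part of Leydig cell number in the kallikrein differences was not tested. Of the markers of other cells, none was called among 12 Sertoli, 7 macrophage, 5 endothelial and 5 peritubular myoid genes tested. Of all tested genes 0.749% were called in either direction, so these short lists say little. Of 11 germ cell markers only Kit was called (0.46, limma adjusted p = 0.0329). Log2 fold changes of the 11 were above 0 for 4 and below 0 for 7, with a median of -0.058. Sertoli markers summed to 1259 and 1294 CPM in MUT 1 and MUT 2, and to 1228 and 1170 CPM in the WT libraries. For 8 of the 12 Sertoli markers both MUT libraries lay above both WT libraries, and for 1 below. Log2 fold changes were above 0 for 9 of the 12, so this direction was not particular to Leydig markers. All 5 peritubular myoid markers had log2 fold changes below 0.

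**Figure D5:**
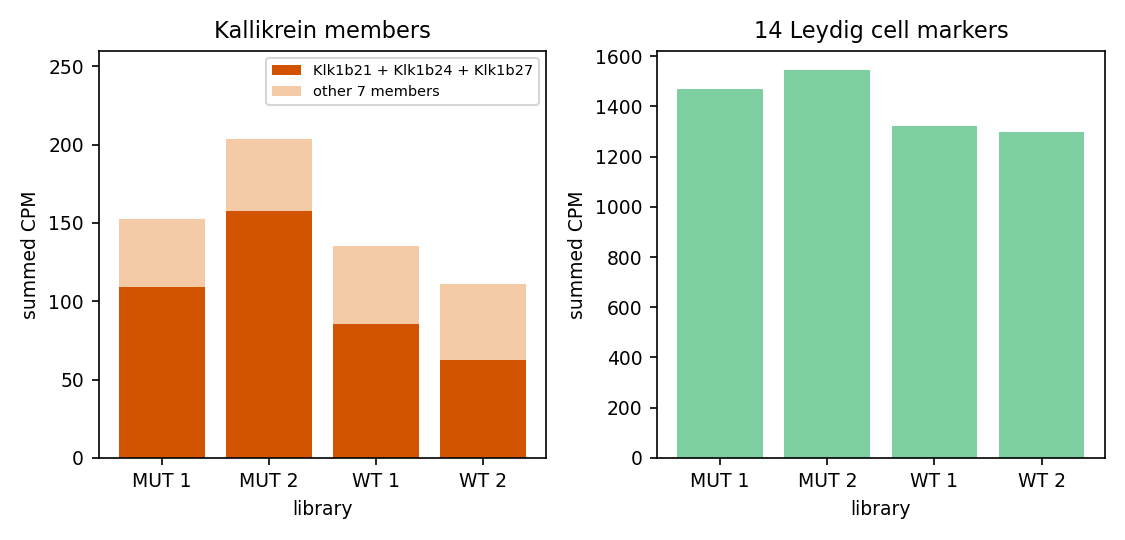
Summed CPM (vertical axes, from 0) in each library, left for the members, split into Klk1b21, Klk1b24 and Klk1b27 and the other 7, and right for 14 Leydig cell markers. The 3 genes, which are those called higher in MUT, range from 62.7 to 158 CPM. The other 7 stay between 43.4 and 49.9 CPM, and the Leydig sum ranges from 1298 to 1545 CPM.

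The promoters of the 3 genes that were higher together are shown beside those of Klk1b8 and Klk1b3 so that their letters can be compared. All 10 members matched a RefSeq promoter on GRCm38.p6, spanning 250 bases before to 50 after the annotated start. Over aligned positions, Klk1b21 was 97.7% identical to Klk1b24 and 93.1% to Klk1b27, against 78.5% to Klk1b8 and 82.7% to Klk1b3. These pairs of Klk1b21 with Klk1b24 and with Klk1b27 were the most alike of all pairs of members. Klk1b24 and Klk1b27 were 89.9% identical, about as alike as Klk1b3 and Klk1b5 (89.6%) or Klk1b16 and Klk1b26 (90.9%). Likeness of that lower degree was thus not particular to the 3 genes. The windows lie at chr7:44102042-44102341 (Klk1b21), chr7:44187986-44188285 (Klk1b24), chr7:44052040-44052339 (Klk1b27), chr7:43950416-43950715 (Klk1b8) and chr7:44197941-44198240 (Klk1b3), all on the plus strand. Capitals mark matches to the motifs searched.
Klk1b21: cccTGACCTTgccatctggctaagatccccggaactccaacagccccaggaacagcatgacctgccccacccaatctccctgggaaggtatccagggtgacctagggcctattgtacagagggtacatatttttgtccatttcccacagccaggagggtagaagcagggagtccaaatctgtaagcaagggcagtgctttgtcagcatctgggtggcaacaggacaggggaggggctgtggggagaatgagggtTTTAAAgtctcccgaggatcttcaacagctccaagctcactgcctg
Klk1b24: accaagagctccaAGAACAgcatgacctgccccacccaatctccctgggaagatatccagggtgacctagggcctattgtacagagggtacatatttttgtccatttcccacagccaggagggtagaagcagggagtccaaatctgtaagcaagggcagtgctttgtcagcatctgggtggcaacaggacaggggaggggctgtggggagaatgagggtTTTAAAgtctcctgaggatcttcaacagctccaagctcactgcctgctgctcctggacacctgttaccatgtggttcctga
Klk1b27: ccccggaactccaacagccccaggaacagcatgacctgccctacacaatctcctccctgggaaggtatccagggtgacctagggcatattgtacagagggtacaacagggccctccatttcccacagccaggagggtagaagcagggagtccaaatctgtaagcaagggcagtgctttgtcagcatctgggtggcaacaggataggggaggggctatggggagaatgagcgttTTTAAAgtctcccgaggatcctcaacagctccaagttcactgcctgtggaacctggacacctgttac
Klk1b8: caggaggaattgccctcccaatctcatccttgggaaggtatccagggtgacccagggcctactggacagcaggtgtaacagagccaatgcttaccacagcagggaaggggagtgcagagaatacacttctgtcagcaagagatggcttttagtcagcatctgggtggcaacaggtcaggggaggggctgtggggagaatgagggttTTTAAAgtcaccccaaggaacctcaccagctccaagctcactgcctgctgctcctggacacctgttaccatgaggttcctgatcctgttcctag
Klk1b3: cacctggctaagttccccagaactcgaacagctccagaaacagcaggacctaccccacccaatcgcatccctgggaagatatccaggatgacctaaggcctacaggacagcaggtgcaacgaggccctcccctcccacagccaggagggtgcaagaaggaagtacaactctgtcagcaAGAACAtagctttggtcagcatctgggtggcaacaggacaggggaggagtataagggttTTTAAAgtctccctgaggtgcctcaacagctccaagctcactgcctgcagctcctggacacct
Searched on both strands were the TATA box TATAAA, the orphan nuclear receptor motif AAGGTCA, the motif AGAACA (part of androgen receptor sites), the cyclic AMP response element TGACGTCA and the GATA factor motif AGATAA. No member held TATAAA, TGACGTCA or AGATAA, which 13.6%, 1.79% and 11.2% of all promoters held. AAGGTCA was found in 2 members, Klk1 and Klk1b21, and in 4.72% of all promoters. AGAACA was found in 2 members, Klk1b3 and Klk1b24, and in 19.0% of all promoters. TTTAAA, searched only after the promoters were seen, was present in 9 of 10 members, all but Klk1, and in 13.2% of all promoters. It overlaps none of the other matches. Its distance to the annotated start differed between members, from 44 bases before it in Klk1b8 to 4 bases after it in Klk1b21, so the annotated starts of these copies are not aligned with one another.

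The other genes of the family lay below the 4 abundant members. Klk1b7-ps and Klk1b9 averaged 14.7 and 7.24 CPM per kb, above Klk1b22, Klk1b3, Klk1, Klk1b5 and Klk1b16. Of the 4 coding genes of the cluster outside the 10, Klk1b9 was at 7.11 and 5.74 CPM in the MUT libraries against 6.02 and 6.31 CPM in WT, and it was not called (limma adjusted p = 0.899). Klk1b1, which like Klk1b7-ps lies within Gm44756, was under the filter at 0.882 and 1.22 CPM in the MUT libraries against 0.593 and 0.422 CPM in WT. Klk1b4 was at 0.308 and 0.880 CPM in the MUT libraries against 0.786 and 1.11 CPM in WT. Klk1b11 had at most 1 read per library. The pseudogene Klk1b7-ps was at 9.84 and 9.58 CPM in the MUT libraries against 8.91 and 8.04 CPM in WT (adjusted p = 0.438). None of the 12 kallikrein-related peptidases Klk4 to Klk15 passed the filter, and their sum was between 0.744 and 1.20 CPM per library.

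The kinin system is the pathway that Klk1 feeds. None of 15 tested members was called, against 0.749% of all tested genes, a share at which a list of this size says little. Log2 fold changes were above 0 for 10 and below for 5, with a median of 0.11. The substrate genes Kng1 and Kng2 were at most 0.0593 and 0.503 CPM in any library, and the receptor genes Bdkrb1 and Bdkrb2 at most 0.282 and 0.464 CPM, all under the filter. Ace, the peptidase that degrades kinins and has a testis form, was the most abundant at 684 and 692 CPM in the MUT libraries against 740 and 809 CPM in WT and was not called (-0.17, SE 0.0607, limma adjusted p = 0.196). The peptidase genes Xpnpep1 and Cpd followed, with means of 146 CPM for Xpnpep1 in MUT and 142 CPM in WT, and of 59.998 CPM for Cpd in MUT and 54.9 CPM in WT. Serpina3c, a serine protease inhibitor gene, was at 16.7 and 18.9 CPM in the MUT libraries against 14.4 and 14.7 CPM in WT, and was not called (adjusted p = 0.185).

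Among partners and substrates in growth factor and renin signalling, none of 6 tested genes was called, against 0.749% of all tested genes. A list of this size says little at that share. Ren1, a renin gene, had no read in any library. Atp6ap2, the prorenin receptor gene, was at 9.68 and 9.36 CPM in the MUT libraries against 8.47 and 10.4 CPM in WT. Egf was at 8.90 and 8.50 CPM in the MUT libraries against 8.85 and 8.34 CPM in WT. Agtr1a, an angiotensin receptor gene, was at 13.7 and 17.3 CPM in the MUT libraries against 17.5 and 17.2 CPM in WT. The genotypes overlapped for these 3 genes. Agt, the renin substrate gene, was at 4.24 and 3.96 CPM in the MUT libraries against 5.35 and 6.25 CPM in WT. Both MUT libraries lay below both WT libraries, and the log2 fold change of -0.45 (SE 0.128) was not called (limma adjusted p = 0.104).

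Genes outside the family whose values over the 4 libraries were most like those of Klk1b21 were found by the distance between log2(CPM + 0.5) values centred on each gene's mean, over 13707 tested genes. Within the family, Klk1b24 lay at 0.125, Klk1b27 at 0.344 and Klk1b22 at 0.567. Outside it, the closest were Rassf4 (0.302), Cbr2 (0.342), Mia (0.355), Vipr2 (0.357) and Spock1 (0.399), so Klk1b24 was closer than any of them. Klk1b21 and Klk1b24 were also each other's main partner for shared 50-base stretches. The part of shared reads in their closeness was not tested. Rassf4, for example, was at 4.16 and 4.74 CPM in the MUT libraries against 2.21 and 1.63 CPM in WT. For Klk1b3, the closest were Crat (0.249), Cd74 (0.262), Fbln2 (0.289), Asic3 (0.290) and Arhgef4 (0.297). With 4 libraries many genes share a pattern, and the distance says nothing of a common function.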

How the data were processed

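RNA of 4 testis libraries (2 MUT, 2 WT) was measured with a stranded mRNA kit, per the labels' protocols. The authors deposited CPM, 1 column per library; TopHat2 2.0.10, HTSeq 0.6.0, edgeR 3.8.6 and mm10 are named without roles, per the submitters' processing notes. Each value was a whole multiple of the smallest in its library (100% within 0.001), which gave whole reads; counting error only is covered by floors of 3 reads. Genes reaching 1 CPM in 2 or more libraries were tested on log2(CPM + 0.5) with limma 3.58.1 (trend) in R 4.3.3, two-sided, Benjamini-Hochberg adjusted over 15364 genes, called at adjusted p under 0.05. An exact permutation test of 2 against 2 cannot go below 0.333. edgeR 4.0.16 and DESeq2 1.42.0 were run on recovered reads. The members and lists were chosen with earlier results of these data known. Named genes were the members, up to 3 most abundant genes of each list, called list genes, genes with defining roles (chosen after their values were seen: Klk1b1, Klk1b4, Klk1b11, Egf, Agt, Insl3, Sult1e1, Star, Kng1, Kng2, Bdkrb1, Bdkrb2, Serpina3c, Ren1, Egfbp2) and nearest patterns. Some list genes are not reported here. Coding sequences (GENCODE) and promoters (RefSeq) were aligned with MAFFT 7.526; protein identity, planned at first, was replaced by coding identity.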

Additional observations from a re-analysis of the deposited data

How the results depend on the processing

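Against 74 genes called higher and 41 lower, testing genes of any level gave 7 and 4. Quantile normalization gave 35 and 18, and dropping the variance trend 5 and 2. Rescaling each library to the same CPM total, which put the median over all genes at 0.03 on the log2 scale, gave 127 higher and 35 lower, so that 78.4% of calls were higher instead of 64.3%. DESeq2 called 72 lower. Leaving out single libraries gave 71 to 115 higher and 43 to 165 lower. The cause was not tested. The replicate block gave 57 and 31 calls and changed no member's call. Same-numbered libraries did not deviate together (correlation -0.134 over genes), so the numbers are not taken as pairs. A crossed block, chosen after seeing the data, gave 131 and 104 calls. Klk1b5 turned below 0 with a pseudocount of 1 (-0.0012), after quantile normalization (-0.0103), with edgeR (-0.00064) and with DESeq2 (-0.0091). Leaving out single libraries gave -0.19 to 0.19 for Klk1b5, -0.0701 to 0.0999 for Klk1b16 and -0.0539 to 0.29 for Klk1. The log2 ratio of the summed CPM was 0.31 to 0.73 without single libraries and 0.56 after rescaling. With 2 libraries per genotype, differences of the size of the library spread could not be resolved.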
